A study of Homo sapiens with 24 samples.

Results

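CHCHD5, DPM3, UNG and CDCA7L are 4 protein-coding genes whose transcripts were far lower in A549 cells given small interfering RNA (siRNA) against BOP1 than in cells given a control siRNA. They were named for that fall and for possible off-target effects, so the siRNA comparison itself chose them and is given below as a description without a test. They are 4 of 60609 rows in the expression table and 4 of the 16062 genes with a level of at least 1 TPM, a transcript abundance scaled by gene length and library total, in at least 3 libraries, the genes on which every test was run. All 4 passed that filter.

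A549 is a human lung carcinoma cell line. The cells received either a pool of siRNAs against BOP1 (siBOP1) or siRNA against Firefly luciferase (siFLuc), an insect gene that human cells lack. After 48 h they were mock treated or given interferon beta (IFN) at 1000 U/mL, and RNA was taken 8 h or 12 h later. The 8 groups, which differ in siRNA, treatment and time, held 3 libraries each, and all 24 libraries came from the same line and the same transfection procedure. BOP1 was targeted with a single pool, so a fall that follows the loss of BOP1 and a fall caused by the siRNAs themselves cannot be told apart in this design. The sequences of the siRNAs were not used here.

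BOP1 helps to process ribosomal RNA for the large ribosomal subunit. CHCHD5 is a small protein with a twin CX9C motif, a class taken into the mitochondrial intermembrane space by the MIA40 (CHCHD4) and GFER disulfide relay. DPM3 is the small membrane subunit that holds the catalytic subunit DPM1 of dolichol-phosphate mannose synthase at the endoplasmic reticulum, where the enzyme makes the mannose donor for N-glycans, O-mannosylation and glycosylphosphatidylinositol anchors. UNG, uracil-DNA glycosylase, removes uracil from DNA and so opens base excision repair. CDCA7L is a nuclear relative of CDCA7 that binds MYC and the chromatin protein PSIP1. An siRNA is loaded into an Argonaute protein and cleaves transcripts that pair with it fully, and it can also lower others that pair with its seed, most often in the 3′ untranslated region (3′UTR).

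A 7-base word, GCCAGTT, that an earlier look at these data had picked out was searched on the sense strand, with its reverse complement AACTGGC, in 1 annotated transcript of each gene (GRCh38, GENCODE 29). The 3′UTRs of UNG, DPM3 and CDCA7L held it and that of CHCHD5 did not. The sites are shown because they are the letters that 3 of the 4 genes share, with the word in capitals and the flanking bases in lower case, 5′ to 3′ on the transcript.
UNG first site: ttaacgtatttGCCAGTTacgaagttccac
UNG second site: tgccagtctctGCCAGTTccactgccccct
CDCA7L site: taaaaatatctGCCAGTTattaaaaagcac
DPM3 site: cccattaaagaGCCAGTTtattttctaa

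In UNG (plus strand) the word lay at chr12:109110016-109110022 and chr12:109110422-109110428, which is 47 and 453 bases after the stop codon in a 3′UTR of 1023 bases. In CDCA7L (minus strand) it lay at chr7:21902068-21902074, 248 bases after the stop codon in a 3′UTR of 1421 bases. In DPM3 (minus strand) it lay at chr1:155139901-155139907, 55 bases after the stop codon in a 3′UTR of only 71 bases. The 4 genes had no copy of either word in their 5′UTR or coding sequence. Of all annotated transcripts, the word was in 3 of 3 for DPM3, 4 of 5 for UNG, 4 of 10 for CDCA7L and 0 of 5 for CHCHD5.

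The word is common. Among tested genes with an annotated 3′UTR, 1238 of 12368 held it there (10.0%), and 7.98% held AACTGGC. Among genes whose 3′UTR was within 25% of the length of each member's, the share was 0.68% for DPM3 (294 genes), 5.77% for UNG (1785 genes), 8.07% for CDCA7L (1920 genes) and 17.2% for CHCHD5 (1766 genes). Because the word was picked on these data, its presence in 3 of 4 genes is a description and bears on nothing else. A match does not make a site, and its absence from CHCHD5 says only that these letters are not in that transcript.

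The coding sequence of BOP1 held GCCAGTT 1 time, as 12.0% of coding sequences did. A search added after the values had been seen looked for the longest run of bases that each member shared with the BOP1 transcript. In CHCHD5 it was a run of 15 bases in the 3′UTR, at chr2:112588946-112588960 on the plus strand, identical to a stretch of the BOP1 coding sequence whose last 5 bases are the first 5 of the GCCAGTT copy there. The full 15-base run was found in CHCHD5 alone among 12645 genes compared with BOP1, and in 4 of its 5 annotated transcripts. Because the run was taken from CHCHD5 itself, its being found there alone is a description only. Runs of that length are not rare in themselves: 314 genes (2.48%) shared at least 1 run of 15 or more bases with BOP1. DPM3 shared a 15-base run in its coding sequence, away from the word, and the longest runs of UNG and CDCA7L were 12 and 13 bases.

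Over the 19 bases of BOP1 that end with the word, CHCHD5, aligned on its shared run, was identical at 16. The sites of the other genes, aligned on the word, matched at 9 bases for DPM3, at 11 and 7 for UNG and at 9 for CDCA7L. These alignments differ in kind. Each count includes bases that the alignment fixed in advance, the 15 of the run for CHCHD5 and the 7 of the word for the others. In the best window anywhere in the transcript, CHCHD5 matched at 16 bases, DPM3 at 14, UNG at 12 and CDCA7L at 12. The median over the genes compared was 12. Besides CHCHD5, 20 tested genes had at least 16 identical bases in some window. With siBOP1, limma called 1 of these 20 lower in mock cells at 8 h, 1 at 12 h, 1 in IFN cells at 8 h and 0 at 12 h (0.666%, 0.697%, 0.76% and 0.268% of all tested genes). It called 1 higher in mock cells at 8 h and 0 in the other conditions (1.49%, 0.903%, 1.25% and 0.392% of all tested genes). The median log2 changes of these 20 genes in the 4 conditions were 0.15, −0.08, 0.07 and 0.05. In mock cells at 8 h their changes ran from −0.81 to 0.96.

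BOP1 stood at 32.4 to 78.8 TPM over the 12 siFLuc libraries (median 57.6) and at 10.04 to 19.5 TPM over the 12 siBOP1 libraries (median 15.8), 23.5% to 29.6% of the control mean in the 4 conditions. The epithelial keratins KRT8 (2086 to 3803 TPM) and KRT18 (1785 to 2862 TPM) were high in all 24 libraries, CDH1 ranged from 23.8 to 105 TPM, and the epithelial marker EPCAM was low (1.92 to 5.48 TPM). Of the markers of other cells, PTPRC (leukocytes) did not exceed 0.021 TPM and PECAM1 (endothelium) 0.345 TPM, while COL1A1 (fibroblasts) was at 5.37 to 19.3 TPM, and their part in the results was not tested. Of the alveolar type 2 markers SFTPA1 was listed at 0 in all 24 libraries, SFTPB in 22, NKX2-1 in 16 and SFTPC in 12. Between 13844 and 14509 genes per library reached 1 TPM, and the 10 most abundant genes held 9.50% to 16.2% of the total. TPM is scaled to the same total in every library and keeps no depth, so the depth behind each value is unknown. Libraries carry the numbers 1, 2 and 4. At 12 h those numbered 4 stood somewhat apart, with correlations within groups of 0.961 to 0.977 against 0.985 to 0.988 between numbers 1 and 2. In bulk RNA, fewer cells that make a transcript and less of it per cell cannot be told apart.

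CHCHD5 (ENSG00000125611.15, chr2:112584240-112589275, plus strand) fell the furthest of the 4 in mock cells. Library values are given in the order of numbers 1, 2 and 4. In mock cells at 8 h it measured 43.1, 40.5 and 47.6 TPM with siFLuc and 13.3, 9.88 and 12.8 TPM with siBOP1. At 12 h in mock cells it measured 47.2, 43.0 and 44.2 TPM with siFLuc and 14.2, 14.7 and 15.1 TPM with siBOP1. With IFN the siFLuc values were 40.4, 35.4 and 44.3 TPM at 8 h and 37.7, 29.7 and 46.0 TPM at 12 h. The siBOP1 values with IFN were 14.5, 15.3 and 9.88 TPM at 8 h and 12.9, 13.6 and 13.2 TPM at 12 h. All 12 siFLuc libraries lay above all 12 siBOP1 libraries, the lowest of the former at 29.7 TPM and the highest of the latter at 15.3 TPM. The siBOP1 mean was 27.4% to 35.01% of the siFLuc mean over the 4 conditions. Differences were taken on log2(TPM + 1), where a gene of low level shows less than its full change. They were −1.79, −1.55, −1.54 and −1.43 in mock cells at 8 h and 12 h and in IFN cells at 8 h and 12 h (limma SE 0.15).

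DPM3 (ENSG00000179085.7, chr1:155139891-155140595, minus strand) showed a similar separation. In mock cells at 8 h it measured 45.3, 52.1 and 48.5 TPM with siFLuc and 22.8, 21.5 and 17.7 TPM with siBOP1. At 12 h in mock cells it measured 44.7, 44.6 and 40.6 TPM with siFLuc and 13.5, 21.4 and 12.2 TPM with siBOP1. With IFN the siFLuc values were 50.2, 43.9 and 46.7 TPM at 8 h and 38.2, 28.9 and 28.8 TPM at 12 h. The last pair of values was the lowest that any siFLuc library reached for this gene. The siBOP1 values with IFN were 20.8, 14.8 and 23.3 TPM at 8 h and 20.1, 12.2 and 11.5 TPM at 12 h. No siBOP1 library passed 23.3 TPM and no siFLuc library was below 28.8 TPM. The siBOP1 mean was 36.3% to 45.7% of the siFLuc mean. The log2 differences, in the same order of conditions, were −1.20, −1.44, −1.24 and −1.11 (SE 0.20). The 12 h siBOP1 groups were uneven, with number 2 highest in mock cells and number 1 highest with IFN.

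UNG (ENSG00000076248.10, chr12:109097574-109110992, plus strand) had the highest single control values of the 4. In mock cells at 8 h it measured 46.5, 40.5 and 50.6 TPM with siFLuc and 23.3, 20.8 and 18.0 TPM with siBOP1. At 12 h in mock cells it measured 57.0, 56.4 and 61.3 TPM with siFLuc and 22.1, 22.7 and 21.3 TPM with siBOP1. With IFN the siFLuc values were 38.9, 31.3 and 48.1 TPM at 8 h and 45.3, 31.0 and 49.9 TPM at 12 h. Number 2 was the lowest of the siFLuc IFN libraries at both times. The siBOP1 values with IFN were 20.6, 14.4 and 19.8 TPM at 8 h and 15.9, 13.0 and 24.0 TPM at 12 h. The arms did not overlap, with 31.0 TPM the lowest siFLuc value and 24.0 TPM the highest siBOP1 value. The siBOP1 mean was 37.8% to 46.4% of the siFLuc mean. The log2 differences were −1.11, −1.36, −1.06 and −1.23 (SE 0.20).

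CDCA7L (ENSG00000164649.20, chr7:21900900-21946084, minus strand) was the least abundant of the 4. In mock cells at 8 h it measured 19.02, 17.3 and 24.2 TPM with siFLuc and 10.9, 7.50 and 6.53 TPM with siBOP1. At 12 h in mock cells it measured 21.5, 22.3 and 22.9 TPM with siFLuc and 10.1, 10.2 and 10.6 TPM with siBOP1. With IFN the siFLuc values were 12.2, 14.4 and 20.2 TPM at 8 h and 15.3, 10.9 and 15.3 TPM at 12 h. The siBOP1 values with IFN, 4.26, 3.54 and 3.06 TPM at 8 h and 4.42, 5.13 and 6.20 TPM at 12 h, were the lowest of any member in any group. Within each condition the arms did not overlap, but over all conditions the margin was small. The lowest siFLuc library, number 2 with IFN at 12 h, had 10.913 TPM, and the highest siBOP1 library, number 1 in mock cells at 8 h, had 10.874 TPM. The siBOP1 mean ranged from 23.2% of the siFLuc mean with IFN at 8 h to 46.3% in mock cells at 12 h, the widest range of the 4 genes. The log2 differences were −1.20, −1.04, −1.83 and −1.24 (SE 0.19).

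**Figure D1:**
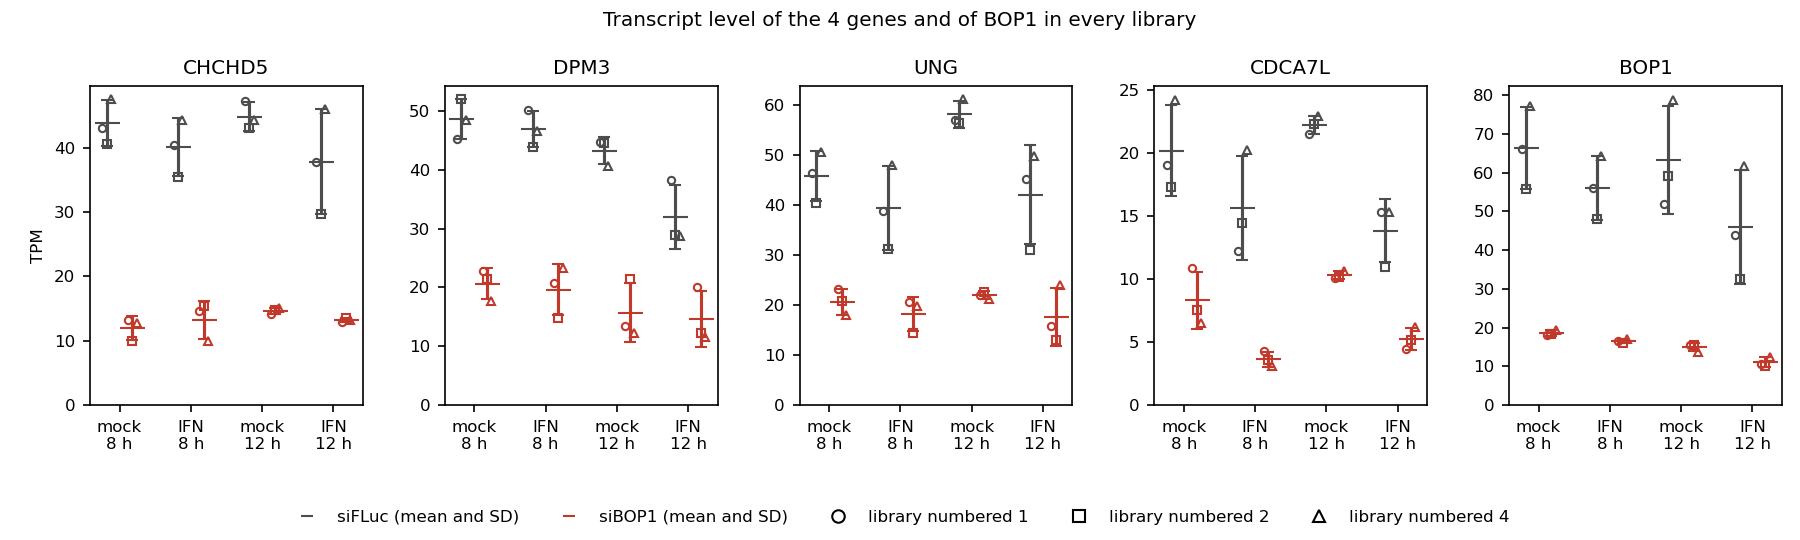
Transcript level (TPM, linear axis from 0, a separate scale in each panel) of CHCHD5, DPM3, UNG, CDCA7L and BOP1 in every library, with siFLuc in grey and siBOP1 in red, the bar and whiskers showing the mean and SD of 3 libraries. In each panel and condition all 3 siBOP1 libraries lie below all 3 siFLuc libraries, and the CDCA7L panel shows the lowest siBOP1 values with IFN.

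For all 4 genes, the siFLuc and siBOP1 libraries of a condition did not overlap in any of the 4 conditions. The share of tested genes that were lower with no overlap was 7.7% in mock cells at 8 h, 7.55% in mock cells at 12 h, 9.92% in IFN cells at 8 h and 5.61% in IFN cells at 12 h. The share that limma called lower (Benjamini-Hochberg adjusted p under 0.05) was 0.666%, 0.697%, 0.76% and 0.268% in the same order, and the share called higher was 1.49%, 0.903%, 1.25% and 0.392%. These shares are the background of the comparison that chose the genes, so nothing is read from them for the 4.

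The genes were ranked by the mean of their 8 h and 12 h log2 differences among those called at both times, without overlap and with at least 5 TPM in the higher group. In mock cells, where 67 genes were ranked, BOP1 was first at −1.88, CHCHD5 was at −1.67, DPM3 at −1.32, UNG at −1.24 and CDCA7L at −1.12. XRCC6, a subunit of the Ku DNA end-binding complex, stood among them at −1.45, as did the amino acid transporter SLC7A5 at −1.14, and the next below was RPSAP54, a pseudogene of RPSA that may share reads with it, at −1.02. In IFN cells, where 33 genes were ranked, CDCA7L was second after BOP1 (−1.80) at −1.53, CHCHD5 stood at −1.48, DPM3 at −1.17 and UNG at −1.14. XRCC6 stood at −1.23 there and SLC7A5, at −1.06, was the next below the members. The 4 genes therefore do not form the complete top of either ranking.

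Ordered by level, the groups of each gene fell into an upper set of 4 siFLuc groups and a lower set of 4 siBOP1 groups. CHCHD5 means ran from 44.8 ± 2.19 TPM (SD, n = 3) in siFLuc mock cells at 12 h to 37.8 ± 8.18 TPM with IFN at 12 h, and then from 14.7 ± 0.46 to 11.98 ± 1.83 TPM in siBOP1 cells. Neighbouring CHCHD5 groups in that order overlapped except at the step between the siRNAs. DPM3 was highest in siFLuc mock cells at 8 h (48.7 ± 3.38 TPM), and its siFLuc IFN group at 12 h (31.97 ± 5.41 TPM) lay apart from the groups on either side. UNG was highest in siFLuc mock cells at 12 h (58.2 ± 2.69 TPM), which did not overlap the next group, siFLuc mock cells at 8 h (45.9 ± 5.09 TPM). CDCA7L ran from 22.2 ± 0.71 TPM in siFLuc mock cells at 12 h down to 3.62 ± 0.61 TPM in siBOP1 IFN cells at 8 h. Its 2 siBOP1 IFN groups, at 5.25 ± 0.89 TPM (12 h) and 3.62 TPM (8 h), overlapped neither each other nor the siBOP1 mock groups. Between IFN and mock groups such gaps were common: 15.1% of all tested genes were lower without overlap with siFLuc at 12 h. With siBOP1 the shares were 26.7% at 8 h and 19.2% at 12 h. Gaps between the times were not counted over all genes, so nothing is read from them. The time differences of UNG in siFLuc mock cells and of CDCA7L in siBOP1 IFN cells were not called (limma adjusted p = 0.487 and 0.220).

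Whether interferon moved the 4 genes is a comparison that the choice of genes did not use. It draws on the same libraries, however, and choosing genes that were low in siBOP1 IFN cells favours a lower value there. With all 24 libraries, no block and no rescaling, CDCA7L was the only 1 of the 4 genes that limma called lower with interferon. With siFLuc its mean went from 22.2 to 13.8 ± 2.54 TPM at 12 h, a log2 change of −0.66 (SE 0.19) with adjusted p = 0.0212 by limma with Benjamini-Hochberg adjustment. With siBOP1 it went from 8.30 ± 2.28 to 3.62 TPM at 8 h, a log2 change of −0.99 with limma adjusted p = 0.000791, and from 10.3 ± 0.30 to 5.25 TPM at 12 h, a log2 change of −0.86 with limma adjusted p = 0.00283. In these 3 comparisons every IFN library lay below every mock library. The same held for DPM3 and UNG with siFLuc at 12 h and for CHCHD5 with siBOP1 at 12 h, none of them called in that fit. Such separation was common: 15.1%, 26.7% and 19.2% of all tested genes were lower without overlap (siFLuc 12 h, siBOP1 8 h and 12 h). For CDCA7L with siFLuc at 8 h the means were 20.2 ± 3.59 and 15.6 ± 4.12 TPM. There the libraries overlapped and the log2 change of −0.37 did not pass (limma adjusted p = 0.260).

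The call for CDCA7L with siFLuc at 12 h rested on few libraries. It was lost without the siFLuc mock library numbered 2 (limma adjusted p = 0.0563) or 4 (0.0516), and without the siFLuc IFN library numbered 2 (0.135, log2 −0.51). It was also lost when only the groups compared entered the fit (log2 −0.66, limma adjusted p = 0.0716). In siBOP1 cells the calls at 8 h and 12 h held when any 1 library of the groups compared was left out. The labels do not say whether the libraries of a group came from separate cultures, so the p-values measure only the spread between these libraries.

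With all 24 libraries, no block and no rescaling, CHCHD5, DPM3 and UNG were not called in any of the 4 interferon comparisons. CHCHD5 changed by −0.13 and −0.26 with siFLuc at 8 h and 12 h and by 0.12 and −0.14 with siBOP1 (SE 0.15, limma adjusted p from 0.295 to 0.683). DPM3 changed by −0.05 and −0.44 with siFLuc and by −0.09 and −0.10 with siBOP1 (SE 0.20, limma adjusted p from 0.171 to 0.926). UNG changed by −0.23 and −0.49 with siFLuc and by −0.18 and −0.35 with siBOP1 (SE 0.20, limma adjusted p from 0.117 to 0.601). With the library number as a block, the UNG change of −0.49 with siFLuc at 12 h was called (limma adjusted p = 0.0310). In a fit of libraries 1 and 2 alone with their labelled replicate number as a block, 3 changes of these genes were called. They were UNG with siFLuc at 12 h (−0.58, limma adjusted p = 0.0100), UNG with siBOP1 at 12 h (−0.61, 0.00710) and CHCHD5 with siFLuc at 12 h (−0.42, 0.0323). Libraries 1 and 2 without a block gave the same 3 calls (limma adjusted p = 0.0454, 0.0344 and 0.0471). Quantile normalization without a block called UNG with siFLuc at 12 h (−0.52, limma adjusted p = 0.0425). UNG with siBOP1 at 12 h was called also without the siBOP1 IFN library numbered 4 (limma adjusted p = 0.0451).

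Counted over the 4 genes, limma called 0 lower with siFLuc at 8 h, where 0 had an unadjusted p under 0.05 and 5.07% of all tested genes were called lower. With siFLuc at 12 h it called 1 (6.43% of all genes), with 3 at an unadjusted p under 0.05. With siBOP1 it called 1 at 8 h (9.11%) and 1 at 12 h (7.58%), with 1 at an unadjusted p under 0.05 at each time. With the library number as a block the counts lower were 0, 2, 1 and 1, beside 12.7%, 15.8%, 20.4% and 16.6% of all genes, and 8.24%, 11.2%, 8.56% and 11.4% of all genes were called higher. None of the 4 was called higher, against 5.77%, 7.06%, 5.99% and 7.17% of all genes in the same order. The median change of the 4 was −0.18, −0.46, −0.13 and −0.24, beside medians of −0.09, −0.06, −0.14 and −0.08 over all tested genes. Rescaling by median of ratios moved the all-gene median by 0.14 with siBOP1 at 8 h, and the CDCA7L change there was then −0.86 with limma adjusted p = 0.00162. The same rescaling moved the all-gene median by −0.10 between the times in siBOP1 IFN cells.

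**Figure D2:**
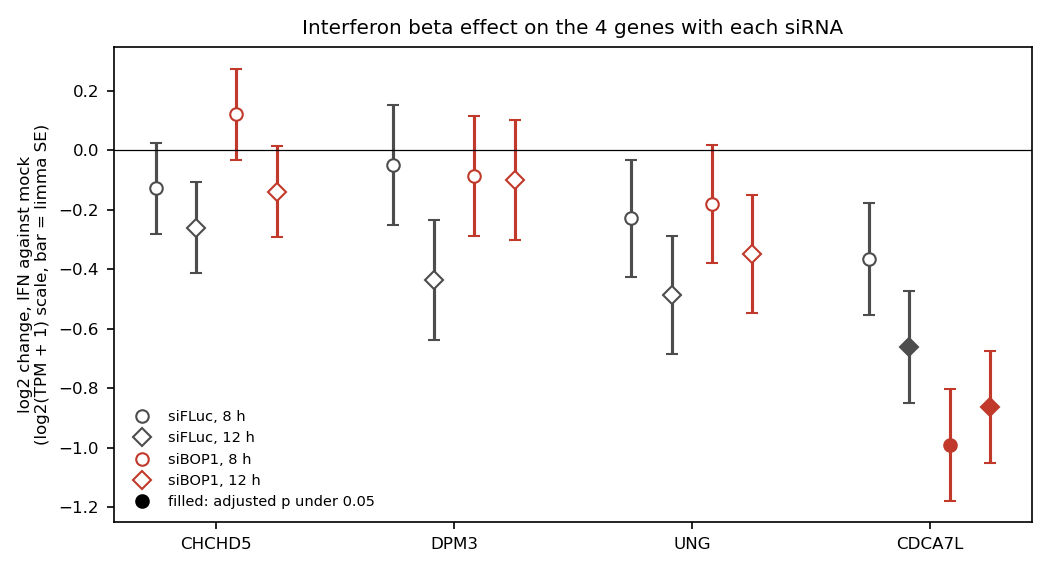
Log2 change with interferon beta against mock (log2(TPM + 1) scale) of the 4 genes in siFLuc cells (grey) and siBOP1 cells (red) at 8 h (circles) and 12 h (diamonds), bars showing the limma SE and filled symbols a limma adjusted p under 0.05. CDCA7L has the only filled symbols, at −0.66, −0.99 and −0.86.

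How far the siRNA effect differed between IFN and mock cells is also a description, since both parts of that difference chose the genes. For CDCA7L the siRNA difference with IFN minus that in mock cells was −0.63 at 8 h and −0.20 at 12 h (SE 0.27). For CHCHD5 the same quantity was 0.25 and 0.12 (SE 0.22), for DPM3 −0.04 and 0.34 (SE 0.28), and for UNG 0.05 and 0.14 (SE 0.28). The value for CDCA7L at 8 h was the furthest from 0 of these 8 in the negative direction.

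Between 8 h and 12 h, limma called 0 of the 4 genes in any of the 4 settings. The shares of all tested genes called in either direction were 0.131% (siFLuc mock), 3.53% (siFLuc IFN), 0.23% (siBOP1 mock) and 2.96% (siBOP1 IFN), and the members with an unadjusted p under 0.05 numbered 0, 1, 0 and 1. One of these was DPM3 in siFLuc IFN cells, from 46.9 ± 3.14 to 31.97 TPM (log2 −0.55, unadjusted p = 0.0128, limma adjusted p = 0.133). The other was CDCA7L in siBOP1 IFN cells, from 3.62 to 5.25 TPM (log2 0.44, unadjusted p = 0.0310, limma adjusted p = 0.220). DPM3 was lower at 12 h in all 4 settings (−0.16, −0.55, −0.41 and −0.42), none of which passed. UNG changed by 0.34, 0.09, 0.09 and −0.08, and CHCHD5 by 0.04, −0.10, 0.28 and 0.02.

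Without a block, no tested gene beside the 4 on their chromosomes was called in the siRNA comparisons. Of 16 neighbours, the 2 nearest protein-coding genes on each side, 10 were expressed well enough to be tested. In the siRNA comparisons limma called 0 of the 10 in each condition, and 2, 3, 2 and 1 had an unadjusted p under 0.05. Over all tested genes it called 0.666%, 0.697%, 0.76% and 0.268% lower and 1.49%, 0.903%, 1.25% and 0.392% higher. At shares this low, 0 of 10 says little about the neighbours. SLC50A1, a sugar transporter 1034 bases from DPM3, had log2 changes of 0.27 and 0.28 in mock cells (8 h and 12 h) and of 0.26 and 0.08 with IFN, where DPM3 was lower. Changes of the other genes follow the same order of conditions. With the library number as a block, SLC50A1 was called higher in the first 3 of these (limma adjusted p = 0.0150, 0.0139 and 0.0187), and KRTCAP2, on the other side of DPM3, in mock cells at 8 h (0.28, limma adjusted p = 0.0450). That block called 5.91%, 4.31%, 4.97% and 2.16% of all tested genes higher in the 4 conditions. ALKBH2, a DNA repair demethylase 3943 bases from UNG, changed by −0.17, −0.10, −0.27 and −0.28, and ACACB, acetyl-CoA carboxylase 2, 5603 bases away, by −0.01, −0.14, 0.13 and −0.45. POLR1B, an RNA polymerase I subunit 7090 bases from CHCHD5, changed by 0.02, −0.32, −0.26 and −0.04. TTL and SLC20A1, also beside CHCHD5, changed by −0.02 to 0.18 and by −0.38 to −0.26. EFNA1 beside DPM3, USP30 beside UNG and SP4 beside CDCA7L had limma adjusted p-values from 0.522 to 0.993. SP4, 386078 bases away, was the only neighbour of CDCA7L that was tested. CDCA7L overlaps DNAH11 on the opposite strand, which at a mean of 0.409 TPM was not tested. How the authors' counting treated strand is not given in the sources used here.

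Without a block, none of the direct partners of the 4 proteins was called in the siRNA comparisons. At most 0.76% of all tested genes were called lower there, and at most 1.49% higher. DPM1, the catalytic subunit that DPM3 anchors, changed by 0.02, 0.28, 0.02 and 0.23 (SE 0.12, limma adjusted p from 0.305 to 0.987), and the third subunit DPM2 by 0.10, 0.17, 0.13 and 0.04. In mock cells at 8 h, DPM1 measured 76.1 ± 3.3 TPM with siFLuc and 77.2 ± 7.0 TPM with siBOP1 (SD, n = 3). CHCHD4, the oxidoreductase of the import relay used by CHCHD5, changed by −0.21, −0.32, −0.30 and −0.27 (SE 0.17, limma adjusted p from 0.459 to 0.745), and GFER by 0.02, 0.04, 0.09 and −0.20. Among the enzymes near UNG, the glycosylases SMUG1 (−0.08, 0.11, −0.06 and 0.20) and TDG (0.14, 0.10, 0.19 and 0.11) and the dUTPase DUT (0.07, 0.04, 0.09 and 0.02) were not called. The abasic-site nuclease APEX1 changed by −0.20, −0.15, −0.23 and −0.24, not called without a block and called in 3 of 4 conditions with the library number as a block (limma adjusted p = 0.0250, 0.00999 and 0.0156 for mock 8 h, IFN 8 h and IFN 12 h). CDCA7, the closest relative of CDCA7L, changed by −0.12, −0.24, −0.17 and −0.21, the chromatin remodeller HELLS by 0.16, −0.37, 0.01 and −0.23, and PSIP1 by 0.27, 0.01, −0.20 and −0.15. PSIP1 was called higher in mock cells at 8 h with the block alone (limma adjusted p = 0.0163). The block called 2.58%, 3.35%, 3.84% and 1.61% of all tested genes lower and 5.91%, 4.31%, 4.97% and 2.16% higher in the 4 conditions.

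**Figure D3:**
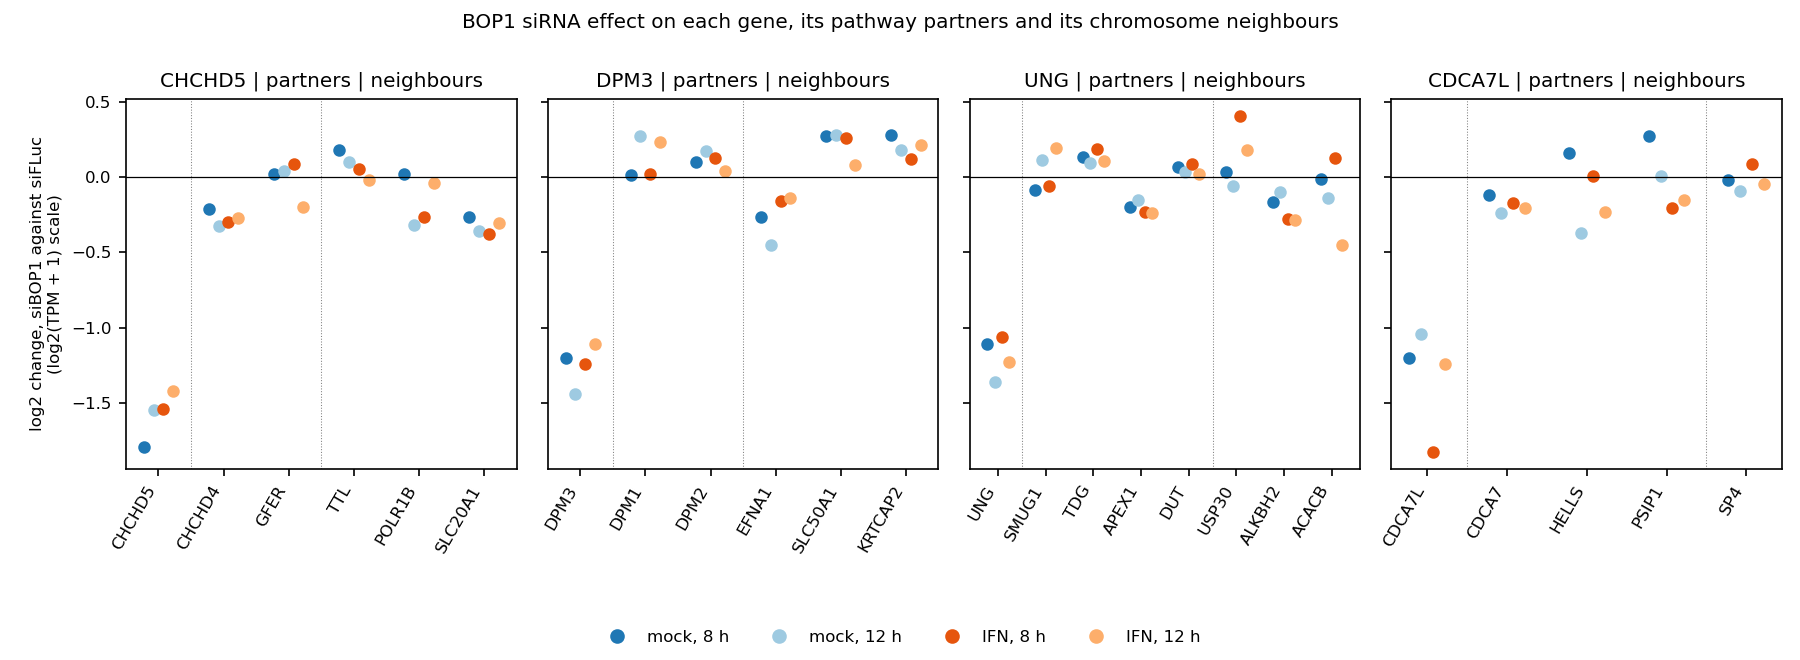
Log2 change with siBOP1 against siFLuc (log2(TPM + 1) scale, 1 point per condition) of each of the 4 genes, left of the first dotted line, then its direct partners and its tested chromosome neighbours. Each of the 4 genes lies between −1.83 and −1.04, while the lowest partner or neighbour is EFNA1 at −0.45 in mock cells at 12 h.

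In the wider lists, chosen with earlier results of these data known, the siRNA comparison called few genes, as it did over all tested genes. Without a block, limma called 0.666%, 0.697%, 0.76% and 0.268% of all tested genes lower and 1.49%, 0.903%, 1.25% and 0.392% higher. At these shares a count of 0 in a list of this size says little. Of 30 tested genes with a twin CX9C motif or in the MIA40 pathway, 0 were called in each condition by limma, with 3, 1, 4 and 2 at an unadjusted p under 0.05, and their median log2 changes were 0.04, 0.02, 0.03 and 0.05. Of 28 tested base excision repair genes, 0 were called in each condition, with 2, 3, 3 and 2 at an unadjusted p under 0.05. Of 14 relatives and partners of CDCA7L, 0 were called, with 1, 2, 1 and 2 at an unadjusted p under 0.05, and their medians were −0.02, −0.20, −0.16 and −0.16. The medians over all tested genes lay between −0.01 and 0.03. With the library number as a block, more genes were called throughout: 2.58%, 3.35%, 3.84% and 1.61% of all tested genes lower and 5.91%, 4.31%, 4.97% and 2.16% higher. CHCHD2, an abundant twin CX9C protein that also acts in transcription, was then called higher in 3 conditions (log2 0.36, 0.39 and 0.33 in mock cells at 8 h and IFN cells at 8 h and 12 h). AIFM1 (0.23) and the DNA polymerase subunit POLD1 (0.26) were called higher with the block in mock cells at 8 h (limma adjusted p = 0.0357 and 0.0394), and COA6 (0.29) in IFN cells at 8 h (limma adjusted p = 0.0438). CDCA5 and UHRF1 were called lower with the block at 12 h in mock cells (−0.52 and −0.34) and in IFN cells (−0.50 and −0.50).

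The 25 tested genes that make or use dolichol-phosphate mannose, the pathway of DPM3, gave calls without a block. In mock cells limma called 1 higher and 2 lower at 8 h and 2 lower at 12 h. With IFN it called 1 lower at 8 h and 0 at 12 h (1 with an unadjusted p under 0.05). Over all tested genes it called 0.666%, 0.697%, 0.76% and 0.268% lower and 1.49%, 0.903%, 1.25% and 0.392% higher in these 4 conditions. NUS1, a subunit of the cis-prenyltransferase that builds dolichol, fell from 27.5 ± 2.2 to 18.1 ± 2.1 TPM in mock cells at 8 h (log2 −0.58, limma adjusted p = 0.00585). It fell also in mock cells at 12 h (−0.53, limma adjusted p = 0.0147) and IFN cells at 8 h (−0.51, limma adjusted p = 0.0156), and measured −0.22 in IFN cells at 12 h (limma adjusted p = 0.568). DPY19L1, a C-mannosyltransferase, fell in mock cells at 8 h (−0.61, limma adjusted p = 0.0262) and 12 h (−0.62, limma adjusted p = 0.0302). PIGX, which acts in glycosylphosphatidylinositol mannosylation, rose in mock cells at 8 h (0.61, limma adjusted p = 0.0362). With the library number as a block, 3 more were called in IFN cells at 8 h: DPY19L1 lower (−0.30, limma adjusted p = 0.0464), PIGX higher (0.42, limma adjusted p = 0.0216) and MPDU1 higher (0.20, limma adjusted p = 0.04998). In that condition the block called 3.84% of all tested genes lower and 4.97% higher. The NUS1 call in mock cells at 8 h held without any 1 of the 6 libraries compared. Its call in mock cells at 12 h was lost without 4 of the 6 taken singly (limma adjusted p up to 0.0661), and that in IFN cells at 8 h without 4 (up to 0.0885). The DPY19L1 call was lost without 4 of 6 at 8 h (up to 0.156) and without any of the 6 at 12 h (up to 0.110), and the PIGX call without 5 of 6 (up to 0.188). The 3′UTR of NUS1 (3625 bases) held the word GCCAGTT 1 time and that of DPY19L1 (2697 bases) 2 times. Those of TTL, MPI and COX19 held it 1 time each, and these genes were not called. The transcript used for PIGX had no annotated 3′UTR. Of tested genes with an annotated 3′UTR, 10.0% held the word there, and 17.2% of those within 25% of 2742 bases. That range takes in the length of DPY19L1 but not that of NUS1, for which no share at like length was taken. The word was picked on these data, so its presence here is a description only.

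Some genes of the same lists were called with interferon, where 5.07%, 6.43%, 9.11% and 7.58% of all tested genes were called lower and 5.77%, 7.06%, 5.99% and 7.17% higher. With the library number as a block, 12.7%, 15.8%, 20.4% and 16.6% of all tested genes were called lower and 8.24%, 11.2%, 8.56% and 11.4% higher. The order is siFLuc 8 h and 12 h, then siBOP1 8 h and 12 h. In the twin CX9C list interferon lowered 1, 5, 3 and 6 of 30 genes and raised 0, and with the block it lowered 4, 8, 9 and 11. TRIAP1, which carries phosphatidic acid in the intermembrane space, fell in all 4 (−0.46, −0.58, −0.45 and −0.58, limma adjusted p from 0.00251 to 0.0189), while CHCHD5 passed in none in the same fit. CMC4 fell in 3 (−1.05, −0.76 and −1.08), as did the inner-membrane import chaperone TIMM8A (−0.67, −0.53 and −0.52). In the dolichol list interferon lowered 3, 2, 4 and 1 of 25 genes and raised 0, 0, 1 and 1, and with the block it lowered 5, 3, 8 and 3 and raised 0, 2, 2 and 2. PMM2, the phosphomannomutase of GDP-mannose synthesis, fell in all 4 (−0.44, −0.58, −0.53 and −0.50). In base excision repair it lowered 0, 1, 3 and 2 of 28 genes, near the share over all genes, and with the block 4, 8, 10 and 7. Among them was APEX1 at 12 h with siFLuc (−0.20, limma adjusted p = 0.0390) and with siBOP1 (−0.29, limma adjusted p = 0.00299), and with the block it was called also at 8 h with siFLuc (−0.15, limma adjusted p = 0.0479) and siBOP1 (−0.18, limma adjusted p = 0.0118). Among relatives and partners of CDCA7L it lowered 0, 2, 2 and 2 of 14 genes and raised 1 in each, the MYC partner MAX (0.59, 0.71, 0.72 and 0.61). With the block it lowered 1, 7, 6 and 6 of these 14. UHRF1, which reads hemimethylated DNA, fell in 3 of these comparisons (−0.55, −0.42 and −0.71) and measured −0.32 with siFLuc at 8 h (limma adjusted p = 0.162, and 0.0235 with the block).

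Across the 24 libraries the genes most like each member, among 10599 with a mean of at least 5 TPM, were found by Pearson r of log2(TPM + 1). The libraries fall into the siRNA arms, so r mostly carries that contrast and is a description only. For CHCHD5 these were YWHAZ (0.972), CYFIP1 (0.971), XRCC6 (0.970), RPSA (0.961) and SLC7A5 (0.961). For DPM3 they were RPS21 (0.924), RPSA (0.921), CYFIP1 (0.919), BOP1 (0.918) and XRCC6 (0.917). For UNG they were ERGIC2 (0.940), PDCD11 (0.940), BOP1 (0.939), XRCC6 (0.937) and KRT81 (0.929), and for CDCA7L LASP1 (0.939), MIF4GD (0.928), ELAVL1 (0.925), CARM1 (0.921) and RPS6KB2 (0.918). None of the 4 was among the 5 genes most like another, and r between members ran from 0.759 (DPM3 and CDCA7L) to 0.921 (CHCHD5 and UNG). Within the 12 siFLuc libraries r between members ran from 0.16 (DPM3 and UNG) to 0.84 (CHCHD5 and UNG), and within the 12 siBOP1 libraries from −0.48 (CHCHD5 and DPM3) to 0.59 (UNG and CDCA7L).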

How the data were processed

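Per the labels, RNA from 24 A549 libraries was prepared with a stranded mRNA kit. The authors deposited 1 table of TPM per gene (60609 rows, versioned Ensembl identifiers). The aligner, quantifier and build are not given in the sources used here. Symbols were matched for 60340 rows, and 58502 identifiers occur in GENCODE 29 (GRCh38), from which loci and transcripts were read. Columns are numbered 1, 2 and 4 in each group. The 8 numbered 4 match a group but no labelled replicate number.

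The 16062 genes that reached 1 TPM in 3 or more libraries were compared on log2(TPM + 1) by limma 3.58.1 (R 4.3.3), with a mean for each of 8 groups, an intensity trend and Benjamini-Hochberg adjustment over all tested genes within each comparison (threshold 0.05). The method was tested on simulated data. Same-numbered columns deviated together in the siRNA and IFN comparisons (r from 0.115 to 0.508, 8 comparisons), though numbers 1 and 2 alone hardly did (r from −0.012 to 0.156). In the time comparisons r ran lower, from −0.113 to 0.196, and the 2 ranges overlapped. Numbers 1 and 2 match labelled replicate numbers, but number 4 comes from column names alone, so the full pairing rests on column names. The fit that blocks on column number is therefore printed beside the results of the members and lists whose call or count it changes.

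The members, lists and 7-base word were chosen with earlier results of these data known. Named genes are the 4 members, BOP1, the 2 nearest protein-coding genes on each side, direct partners, list genes called in a siRNA comparison, the 5 genes most like each member and those ranked beside them. List genes named for interferon, and those named only with the block, were chosen after their values were seen. The transcript with the longest coding sequence represented each gene. Alternatives covered the pseudocount, filter, scaling, variance trend, libraries in the fit, replicate block and leaving out each library.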

Additional observations from a re-analysis of the deposited data

How the results depend on the processing

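No called result changed direction. Of 70 differences, 15 took both signs over the alternatives, none of them called, among them DPM3 with interferon and siBOP1 at 8 h (−0.32 to 0.09) and the median siRNA-by-IFN difference of the 4 genes (0.09, from −0.04 to 0.15). The median siRNA difference of the 4 genes (−1.24) stayed between −1.38 and −1.22 under every alternative run. CDCA7L kept its interferon calls with siBOP1 throughout (limma adjusted p at most 0.0212). Of the 4 genes, 1 was called with siFLuc at 12 h, against 2 with quantile normalization, 0 with only the groups compared, 2 with the column number as a replicate block, and 3 with libraries numbered 1 and 2, with or without a replicate block. Leaving out 1 library gave 0 to 1. The added calls were UNG and, in those fits of 3, CHCHD5. With siBOP1 at 12 h, 1 was called, against 2 with libraries 1 and 2, with or without a replicate block, and 1 to 2 leaving out a library. UNG was the added gene, gained without the siBOP1 IFN library numbered 4 (−0.58, limma adjusted p = 0.0451).

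Among 107 neighbours and list genes, siRNA calls numbered 3, 2, 1 and 0 (mock 8 h and 12 h, IFN 8 h and 12 h). They numbered 10, 5, 8 and 4 with the column number as a replicate block. That fit called 2.58%, 3.35%, 3.84% and 1.61% of all tested genes lower and 5.91%, 4.31%, 4.97% and 2.16% higher. With libraries 1 and 2 and a replicate block there were 6 in mock cells at 8 h, 3 in IFN cells at 8 h and 1 at 12 h, and without the block 3 in IFN cells at 8 h. With only the groups compared, 0 were called in the first 3 conditions. With no filter there were 1, 1 and 2 in those 3. In IFN cells at 8 h a mean filter of 5 TPM gave 3 and median-of-ratios rescaling 2. Leaving out 1 library gave 1 to 4, 0 to 1, 0 to 1 and 0 to 1. The cause of these shifts was not tested, except that fewer libraries enter some fits. A block by column number could not be fitted to the time comparisons. The depth behind TPM is unknown, so no counting error is given. Blocks by column number and libraries 1 and 2 alone without a block were chosen after seeing the data.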
